A study of Mus musculus with 21 samples.

Results

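The genes of serine synthesis, mitochondrial one-carbon metabolism and the ATF4 stress response were examined in mouse aortic valves. The set held 10 genes of the 20872 listed: Phgdh, Psat1, Psph, Shmt2, Mthfd2, Asns, Atf4, Ddit3, Trib3 and Gcat. They were matched by gene symbol and were chosen by a measured value, the FPKM of Phgdh, which was higher in the drug-treated haploinsufficient valves than in wild-type valves. The other 9 were grouped around it by function. All 10 had a mean of at least 1 FPKM (fragments scaled by gene length and by mapped fragments of the library), as did 14966 genes in all.

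RNA-seq had been run on 21 valve samples in 5 groups, and every mouse was also Terc-/- of generation 2, that is, without the RNA part of telomerase and with shortened telomeres. The wild-type group (WT, n = 4) was N1+/+ with healthy valves and was given the control solvent. The other 17 samples were N1+/-, carrying 1 working copy of Notch1, and are called N1het. They comprised healthy valves with solvent (N1het healthy, n = 6), healthy valves with XCT790 (N1het healthy XCT790, n = 5), stenotic valves with solvent (N1het stenosis, n = 3) and stenotic valves with XCT790 (N1het stenosis XCT790, n = 3). XCT790, an inverse agonist of the nuclear receptor ERR alpha, was injected into the peritoneum each day (5 mg/kg/day), as was the solvent. Dosing began at an age of 4 weeks and lasted 4 weeks. The WT group is a solvent group, so WT against a treated group differs in both genotype and drug. Stenosis is given as a disease state of the valve and not as a treatment, and only N1het groups carry it.

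Cells make serine from a glycolytic intermediate in 3 steps, catalysed in turn by PHGDH, PSAT1 and PSPH. In mitochondria SHMT2 splits serine into glycine and a folate-bound carbon unit, which MTHFD2 passes on towards purine synthesis. ATF4 is a transcription factor whose translation increases when the initiation factor eIF2 alpha is phosphorylated under amino acid shortage, mitochondrial stress or misfolded protein. Its known targets include Phgdh, Psat1, Shmt2, Mthfd2, Asns, Ddit3 and Trib3. Because ATF4 is controlled largely at translation, the Atf4 transcript alone is an incomplete measure of its activity.

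The core of the composite element that ATF4 binds together with C/EBP proteins was searched for as TGATGNAA, or TTNCATCA on the other strand, in RefSeq promoter windows of GRCm38.p6 from 250 bases before to 50 bases after each start. All 10 genes matched a window, Psat1 with 2, and 2 of these 11 windows held the letters, those of Asns and Trib3. Of all 32851 windows, 1304 (3.97%) held them. The 150 bases before the start are printed for Asns, for Phgdh, on which the set was chosen, and for Gcat, whose level set N1het apart from WT. For Trib3 only 30 bases around the match are printed. Capitals mark the match, and each sequence reads 5′ to 3′ on the strand of the gene.
Asns (chr6:7693210-7693359, minus strand): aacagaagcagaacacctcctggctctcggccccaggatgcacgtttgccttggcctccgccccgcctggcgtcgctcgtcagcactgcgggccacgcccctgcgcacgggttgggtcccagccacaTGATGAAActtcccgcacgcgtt
Phgdh (chr3:98339970-98340119, minus strand): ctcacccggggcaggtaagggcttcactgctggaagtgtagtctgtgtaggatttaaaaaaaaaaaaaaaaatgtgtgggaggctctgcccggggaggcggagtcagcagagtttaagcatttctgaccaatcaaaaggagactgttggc
Gcat (chr15:79030724-79030873, plus strand): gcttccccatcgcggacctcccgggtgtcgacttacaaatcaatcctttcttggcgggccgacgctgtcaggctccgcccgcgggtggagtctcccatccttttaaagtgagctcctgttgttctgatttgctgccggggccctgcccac
Trib3 (chr2:152344028-152344057, minus strand): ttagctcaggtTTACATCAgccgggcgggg
The match in Asns began 23 bases before the start, and that in Trib3, on the opposite strand, lay 14 bases after it. The Phgdh and Gcat windows held no match to these letters. A match is a description of the sequence and not a measured site.

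Reads recovered from the FPKM steps numbered between 8.42 and 27.3 megareads (M reads) a library. A set of 6 deeper libraries was picked by cuts on read number and mitochondrial share, so its separate read range follows from the cuts. These had 17.7 to 27.3 M reads and a mitochondrial share of 0.06% to 0.51%. The other 15 had 8.42 to 15.5 M reads and 0.84% to 8.28%. The deeper set held WT 1, N1het healthy 1 and 4, N1het healthy XCT790 1 and 2, and N1het stenosis XCT790 2. WT 1, WT 4 and N1het healthy 3 had the lowest mean correlation with the other libraries. In 6 libraries the agent field contradicts the title: that field gives XCT790 for the 3 N1het stenosis libraries and the solvent for N1het healthy XCT790 1, 2 and 3. Groups follow the titles. Terc was not listed, and Notch1 ran from 19.4 to 50.03 FPKM with WT at 33.9 ± 8.93 (SD, n = 4) and N1het healthy at 35.6 ± 9.37 (n = 6). The Notch1 level did not separate the labelled genotypes. Markers of valve interstitial cells and fibroblasts, such as Dcn and Vim, were above 0 in every library for all 12 genes of the list. Summed heart muscle markers ran from 36.1 to 3293 FPKM within WT alone.

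Gcat (ENSMUSG00000006378) was the member whose level separated the genotypes. It encodes glycine C-acetyltransferase, the mitochondrial enzyme that completes the breakdown of threonine to glycine and acetyl-CoA. In WT 1 to 4 it stood at 0.162, 0.0656, 0.078 and 0 FPKM, from 5, 1, 1 and 0 reads. In N1het healthy valves it ran from 0.843 to 3.70 with a median of 1.35 FPKM. The 5 N1het healthy XCT790 libraries had 2.30, 0.901, 3.16, 0.433 and 2.84 FPKM. The 3 N1het stenosis valves had 0.645, 2.04 and 1.23 FPKM, and the 3 N1het stenosis XCT790 valves had 3.00, 6.29 and 2.35 FPKM. All 17 N1het libraries thus lay above all 4 WT libraries, on 9 to 160 reads each. With a WT mean far under 1 FPKM, Gcat passed the filter on low values only through its N1het libraries, so how rare such a separation is among the tested genes is no support for it.

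The mean of Gcat was 0.0763 ± 0.066 FPKM (SD, n = 4) in WT and 1.81 ± 1.06 (n = 6) in N1het healthy valves, a ratio of 23.7 that rests on 7 WT reads in all. On the log2(FPKM + 1) scale, which understates differences of low genes, N1het healthy minus WT was 1.31 ± 0.40 (SE). Tested with limma across all genes, its unadjusted p was 0.0036 and its Benjamini-Hochberg adjusted p 0.474, or 0.581 with no filter on low values. N1het stenosis minus WT was 1.06 ± 0.48 (ratio of mean FPKM 17.1, limma unadjusted p = 0.0372, adjusted p = 0.45, or 0.504 with no filter). Neither passed the adjusted test, although the groups did not overlap. On the recovered reads, limma voom gave 4.01 and 3.61, values that depend on its prior count where WT is near 0, and with muscle marker levels as covariates the first was 0.77. With the deeper set left out (15 libraries) they were 1.40 and 1.09, and the WT library inside it, WT 1, had 5 Gcat reads among 21.5 M reads. Median levels of markers of other cell types also differed between N1het and WT, with none of these genes called. Their part in the Gcat difference was not tested beyond the muscle covariates. In N1het healthy minus WT, melanocyte markers were higher for 7 of 7 tested (median 1.05), heart muscle markers for 11 of 12 (1.67) and smooth muscle markers lower for 7 of 8 (-1.47). Summed melanocyte markers ran from 10.4 to 234 FPKM in WT, 77.9 to 539 in N1het healthy and 226 to 645 in N1het stenosis valves. In N1het stenosis minus WT, the medians were 1.77 for melanocyte markers (7 of 7 higher), 1.24 for heart muscle (10 of 12 higher), -0.78 for smooth muscle (6 of 8 lower) and 1.31 for macrophages (15 of 15 higher). Valve interstitial and fibroblast markers had -0.28 there (11 of 12 lower), and 0.23 in N1het healthy minus WT (10 of 12 higher). Macrophage markers had -0.12 in N1het healthy minus WT (11 of 15 lower). Summed heart muscle markers overlapped, at 36.1 to 3293 FPKM in WT and 143 to 4859 in N1het healthy valves. Summed macrophage markers ran from 1566 to 2767 FPKM in WT and from 1163 to 2801 in N1het healthy valves. In bulk tissue, fewer cells of a type and less RNA per cell cannot be told apart. The authors' deposited table marked Gcat as changed in both of these comparisons, where 139 and 281 of the 20872 genes listed were marked. None of the other 9 members was marked in any of its 5 comparisons. It marked 262 genes in N1het stenosis against N1het healthy, and 26 and 56 for XCT790 in healthy and stenotic valves. These marks come from the same libraries and are no separate support for Gcat.

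**Figure D1:**
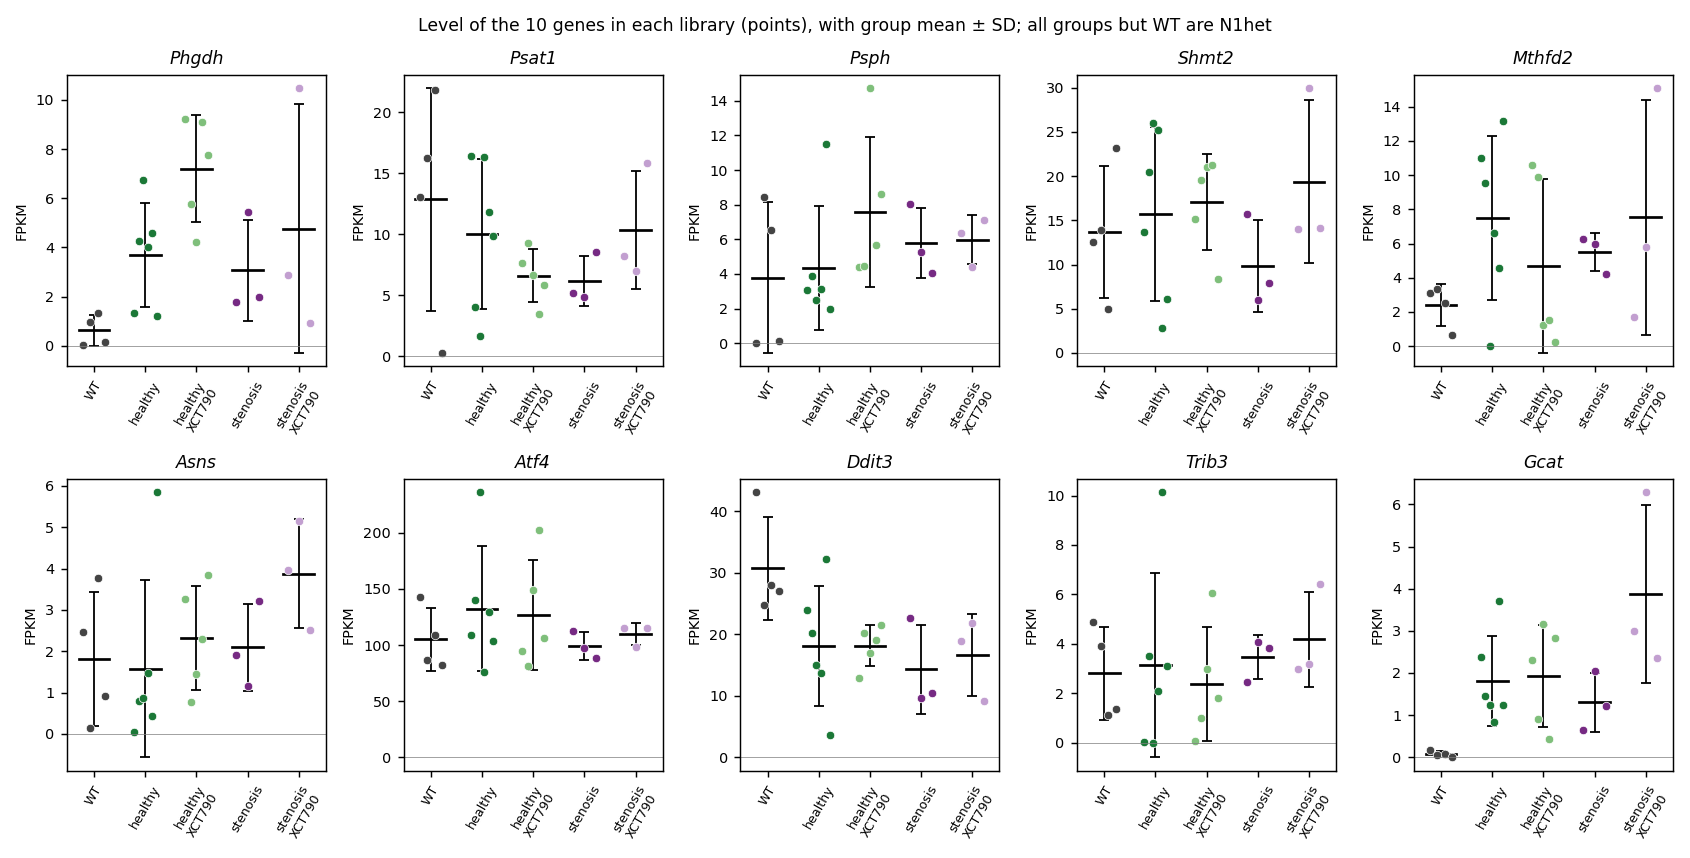
Level of each gene in FPKM (vertical axis, linear) by group, with a point per library and bars at the group mean ± SD (n = 4, 6, 5, 3 and 3 from left to right). Gcat lies near 0 in the 4 WT libraries and at 0.433 FPKM or more in the 17 N1het libraries, while the groups overlap for most other genes.

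Phgdh (ENSMUSG00000053398), the first enzyme of serine synthesis, was also lowest in WT, and since it chose the set its values involving WT or treated libraries are given as a description. The 4 WT libraries had 0.0374, 0.985, 1.35 and 0.143 FPKM, from 2, 26, 30 and 3 reads. N1het healthy valves ran from 1.19 to 6.75 with a median of 4.14 FPKM. With XCT790, N1het healthy valves 1 to 5 had 9.21, 5.76, 4.21, 9.10 and 7.74 FPKM, all above every WT library. N1het stenosis 1 to 3 had 1.78, 5.45 and 1.99 FPKM, and N1het stenosis XCT790 1 to 3 had 2.90, 10.5 and 0.905 FPKM.

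Group means of Phgdh were thus ordered N1het healthy XCT790 (7.20 ± 2.18, n = 5), N1het stenosis XCT790 (4.77 ± 5.06, n = 3), N1het healthy (3.69 ± 2.115, n = 6), N1het stenosis (3.07 ± 2.06, n = 3) and WT (0.629 ± 0.642, n = 4). N1het stenosis XCT790, N1het healthy and N1het stenosis, neighbours in that order, lay within each other's SD, and both treated groups overlapped. N1het stenosis XCT790 overlapped WT, since its library 3 at 0.905 FPKM lay below WT 2 and WT 3. N1het healthy overlapped WT too, since its libraries 1 and 6, at 1.34 and 1.19 FPKM, lay below WT 3 at 1.35 FPKM. The log2(FPKM + 1) differences from WT were 2.37 ± 0.50 (SE) for N1het healthy XCT790, 1.52 ± 0.57 for N1het stenosis XCT790, 1.47 ± 0.48 for N1het healthy and 1.30 ± 0.57 for N1het stenosis. These 4 share the WT libraries and are not independent of each other. Without the 3 libraries that stood farthest from the rest, the difference of N1het healthy from WT was 0.80. That setting leaves out WT 1 and WT 4, the WT libraries lowest in Phgdh. Outside the deeper set that of N1het stenosis XCT790 was 0.64. On the recovered reads, limma voom gave 4.49 for N1het healthy XCT790, 3.56 for N1het stenosis XCT790, 3.28 for N1het healthy and 3.03 for N1het stenosis.

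Where no library that chose Phgdh entered, N1het stenosis minus N1het healthy, it differed by -0.17 ± 0.53 (limma adjusted p = 0.95). XCT790 minus solvent in healthy N1het valves was 0.91 ± 0.45 (ratio of means 1.95) with overlapping libraries, and in stenotic valves 0.22 ± 0.61. A processed pseudogene, Phgdh-ps1, is annotated (GENCODE M21), and no source used here says how reads shared with it were counted.

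**Figure D2:**
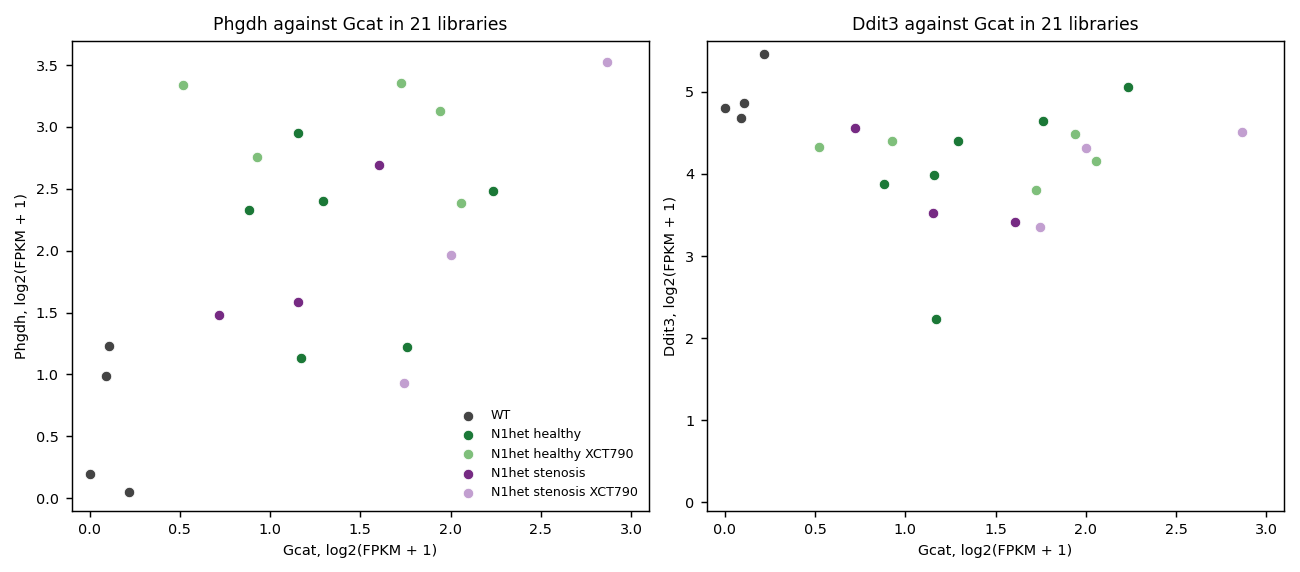
Phgdh (left) and Ddit3 (right) against Gcat, all as log2(FPKM + 1), with a point per library coloured by group. The 4 WT points sit at the left edge, low in Phgdh and high in Ddit3, and the 17 N1het points lie to their right.

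Psat1 (ENSMUSG00000024640), the aminotransferase of the pathway's middle step, did not follow Phgdh. WT libraries 1 to 4 had 13.1, 16.2, 21.8 and 0.285 FPKM, so 3 libraries were high and WT 4 was near 0. N1het healthy valves ran from 1.65 to 16.4 with a median of 10.8 FPKM. N1het healthy XCT790 1 to 5 had 7.68, 9.30, 6.70, 3.45 and 5.86 FPKM, within the range of the untreated healthy valves. N1het stenosis 1 to 3 had 5.20, 4.86 and 8.55 FPKM, and with XCT790 8.23, 6.98 and 15.9 FPKM. N1het healthy minus WT was -0.02 ± 0.63 (limma adjusted p = 0.999), and it was -0.96 without WT 4.

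Psph (ENSMUSG00000029446), the phosphatase of the last step, was split within WT. Levels in WT 1 to 4 were 0, 8.43, 6.56 and 0.156 FPKM, from 0, 136, 89 and 2 reads. In N1het healthy valves it ran from 1.95 to 11.5 with a median of 3.09 FPKM. The 5 N1het healthy XCT790 libraries had 4.43, 4.46, 14.7, 5.65 and 8.62 FPKM. Stenotic valves had 8.02, 5.27 and 4.06 FPKM with solvent and 6.39, 4.42 and 7.14 FPKM with XCT790, a narrower range than WT. N1het healthy minus WT was 0.64 ± 0.57 (limma adjusted p = 0.833) and turned to -0.77 without the 3 farthest libraries, 2 of which are the WT libraries near 0. N1het stenosis minus WT, 1.13 ± 0.67 (adjusted p = 0.572), likewise became -0.36. With limma voom on the recovered reads they were 2.57 and 3.33, so the values moved strongly both ways and none was called.

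Shmt2 (ENSMUSG00000025403), which converts serine to glycine in mitochondria, overlapped between all groups. WT 1 to 4 had 12.5, 13.9, 5.02 and 23.1 FPKM, and N1het healthy valves ran from 2.77 to 25.9 with a median of 17.1 FPKM. With XCT790, N1het healthy valves 1 to 5 had 15.2, 19.5, 20.97, 21.2 and 8.36 FPKM. Stenotic valves had 15.7, 5.93 and 7.89 FPKM with solvent and 13.97, 29.98 and 14.1 FPKM with XCT790. Its difference between the genotypes in healthy solvent valves was 0.04 ± 0.50 (limma adjusted p = 0.993). XCT790 minus solvent in stenotic valves was 0.92 ± 0.63, with an adjusted p of 1.

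Mthfd2 (ENSMUSG00000005667), the mitochondrial folate enzyme, was the most variable member within groups. The 4 WT libraries had 3.12, 3.32, 2.51 and 0.655 FPKM. N1het healthy valves ran from 0.0325, a single read, to 13.2 with a median of 8.07 FPKM. In N1het healthy XCT790 valves, libraries 1 and 2 had 10.6 and 9.88 FPKM and libraries 3 to 5 had 1.21, 1.52 and 0.255. The 2 high libraries are those in the deeper set. N1het stenosis 1 to 3 had 6.27, 5.97 and 4.21 FPKM, all above WT, and with XCT790 1.68, 5.79 and 15.1 FPKM. N1het stenosis minus WT was 1.01 ± 0.84 (limma adjusted p = 0.714), and N1het healthy minus WT 1.04 ± 0.71 (adjusted p = 0.757), or 1.63 with the muscle covariates. With groups taken from the agent field, XCT790 minus solvent in healthy valves was -1.88 in place of -0.75 ± 0.66, and was not called either way.

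Atf4 (ENSMUSG00000042406), the transcription factor, was the most abundant and least variable member. WT libraries 1 to 4 had 143, 86.4, 109 and 82.3 FPKM. N1het healthy valves ran from 76.2 to 236 with a median of 119 FPKM, and N1het healthy XCT790 1 to 5 had 95.1, 81.5, 149, 202 and 106 FPKM. Stenotic valves had 113, 97.6 and 88.0 FPKM with solvent and 115, 98.3 and 116 FPKM with XCT790. Every group overlapped every other. N1het healthy minus WT was 0.27 ± 0.27 (limma adjusted p = 0.857), or 0.65 ± 0.27 outside the deeper set. N1het stenosis minus N1het healthy was -0.33 ± 0.30 (limma adjusted p = 0.794), or -0.55 ± 0.27 outside the deeper set.

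Ddit3 (ENSMUSG00000025408), which encodes the stress-induced factor CHOP, had its highest levels mostly in WT. Levels in WT 1 to 4 were 43.1, 24.7, 28.0 and 27.0 FPKM. N1het healthy valves ran from 3.70 to 32.2 with a median of 17.6 FPKM. The 5 N1het healthy XCT790 libraries had 12.96, 20.1, 16.9, 19.1 and 21.5 FPKM. Stenotic valves had 22.6, 9.67 and 10.5 FPKM with solvent and 18.9, 21.8 and 9.20 FPKM with XCT790. Of the 17 N1het libraries, 16 lay below every WT library, and the exception was N1het healthy 5 at 32.2 FPKM. That count pools solvent, treated and stenotic groups. The share of all genes with such a split is not given here, so nothing is read from the count.

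Mean Ddit3 was 30.7 ± 8.37 FPKM (SD, n = 4) in WT, 18.1 ± 9.74 (n = 6) in N1het healthy and 14.3 ± 7.26 (n = 3) in N1het stenosis valves. N1het healthy minus WT was -0.92 ± 0.40 (limma unadjusted p = 0.0325, adjusted p = 0.621), and N1het stenosis minus WT -1.12 ± 0.48 (unadjusted p = 0.0284, adjusted p = 0.419). Neither passed the adjusted test. The first was -0.56 without N1het healthy 6, the lowest library. In the annotation the end of Ddit3 overlaps the end of Mars on the opposite strand by 68 bases, Psph overlaps Cct6a by 452, Shmt2 overlaps Ndufa4l2 by 32 and Psat1 overlaps the pseudogene Gm3329 by 556. Mthfd2 overlaps the unclassified model Gm43890 on its own strand by 2799 bases, which a strand setting would not resolve. No source used here gives a strand setting, so reads from these stretches cannot be assigned to 1 gene.

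Asns (ENSMUSG00000029752), asparagine synthetase and a textbook ATF4 target, was low throughout. WT 1 to 4 had 2.46, 0.138, 3.77 and 0.912 FPKM, and N1het healthy valves ran from 0.0588 to 5.85 with a median of 0.829 FPKM. With XCT790, N1het healthy valves 1 to 5 had 3.27, 0.767, 1.45, 2.30 and 3.84 FPKM. Stenotic valves had 1.91, 1.15 and 3.22 FPKM with solvent and 3.97, 5.14 and 2.50 FPKM with XCT790. All groups overlapped. N1het healthy minus WT was -0.22 ± 0.50 (limma adjusted p = 0.946), -0.63 with limma voom and 0.14 outside the deeper set.

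Trib3 (ENSMUSG00000032715), a pseudokinase induced downstream of ATF4 and CHOP, was at or near 0 in 3 N1het healthy or N1het healthy XCT790 libraries. The 4 WT libraries had 4.90, 3.90, 1.11 and 1.34 FPKM, and N1het healthy valves ran from 0 to 10.1 with a median of 2.59 FPKM. N1het healthy XCT790 1 to 5 had 0.0569, 0.987, 2.96, 6.05 and 1.80 FPKM. Stenotic valves had 2.46, 4.09 and 3.84 FPKM with solvent and 2.97, 3.16 and 6.40 FPKM with XCT790, none near 0. N1het stenosis minus N1het healthy was 0.58 ± 0.67 (limma adjusted p = 0.839), and 2.10 ± 1.42 with limma voom on the recovered reads (adjusted p = 0.741) or 1.52 ± 1.26 with a pseudocount of 0.1 (limma adjusted p = 0.773).

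Across comparisons, limma called none of the members at an adjusted p of 0.05, with or without the alternatives tried, limma voom included. In N1het stenosis against N1het healthy the members split into 3 higher and 7 lower, with a median log2 difference of -0.18 beside -0.04 over all genes. Outside the deeper set the split was 5 and 5 with a median of 0.01. With all libraries 5 of 14966 genes passed the test (0.0334%), 1437 had an unadjusted p under 0.05 (9.6%), and no member did. No member was free of overlap, beside 2.72% of all genes higher and 2.74% lower. In N1het healthy against WT 6 members, Phgdh among them, were higher and 4 lower (median 0.16 beside 0.09 over all genes). No gene passed there (0%; 5 passed without WT 3), and 1111 (7.42%) had an unadjusted p under 0.05, among them Gcat and Ddit3. Gcat was the 1 member whose groups did not overlap, where 0.862% of all genes were higher and 0.294% lower without overlap. For Gcat nothing is read from either share, by overlap or by unadjusted p, since it passed the filter only through N1het. Here and below, member counts and medians involving WT or treated libraries include Phgdh, which those libraries chose. Nothing is read from their distance from the all-gene values.

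In N1het stenosis against WT 6 members were higher and 4 lower (median 0.32 beside 0.06). In that comparison 5 genes passed (0.0334%) and 1563 had an unadjusted p under 0.05 (10.4%), again with Gcat and Ddit3 among them. Mthfd2 and Gcat lay higher without overlap, where 5.05% of all genes did, and Ddit3 lower, where 3.55% did. Phgdh is not counted by overlap or by p, since its WT values helped to choose it. For Gcat the limit on both shares holds here too. These comparisons share the WT libraries with those below.

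XCT790 against solvent in healthy N1het valves left the members of each group overlapping. Of the members 6 were higher and 4 lower, with a median of 0.11 beside 0.03 over all genes, and the limma adjusted p was 1 for each of the 9 tested members. No gene passed in this comparison (0%), 397 (2.65%) had an unadjusted p under 0.05, and no member was free of overlap between the groups, beside 0.18% of all genes higher and 0.0869% lower. Gcat differed by 0.02 ± 0.38 and Psph by 0.74 ± 0.53. In stenotic valves all 10 members were higher with XCT790, with a median of 0.22 beside 0.09 over all genes, of which 57.6% were higher. Outside the deeper set 8 of the 10 were higher, and Phgdh was at -0.47 in place of 0.22. Again no gene passed (0%), with 501 (3.35%) at an unadjusted p under 0.05 and no tested member among them. Gcat was the 1 member without overlap, 3.88 ± 2.11 FPKM against 1.31 ± 0.702 (both n = 3) and a log2 difference of 1.04 ± 0.51 (limma unadjusted p = 0.0522, adjusted p = 1). As many as 6.09% of all genes were higher without overlap there, and 2.66% lower.

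Stenotic against healthy valves, both with XCT790, gave 6 higher and 4 lower members with no gene called (0%) and 760 (5.08%) at an unadjusted p under 0.05, none of them a tested member. The split was 5 and 5 outside the deeper set and 4 and 6 with groups from the agent field. Phgdh was at -0.85 ± 0.55, and at -1.54 without N1het stenosis XCT790 2, its highest library. No member was free of overlap, beside 2.06% of all genes higher and 1.96% lower. The test of whether the drug's difference itself differed between stenotic and healthy valves gave 1.03 ± 0.63 for Gcat and 0.92 ± 1.00 for Psat1 (limma adjusted p = 1 for both). No gene passed it (0%), and 446 (2.98%) had an unadjusted p under 0.05.

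The treated N1het groups against WT, which chose Phgdh, are given as values only. For N1het healthy XCT790 the differences were 1.33 ± 0.42 for Gcat, 1.38 ± 0.59 for Psph, 0.28 ± 0.73 for Mthfd2, 0.22 ± 0.28 for Atf4 and -0.72 ± 0.42 for Ddit3. The shares of all genes without overlap were 1.75% higher and 0.508% lower there, and nothing is read from them for the members, of which Gcat lay higher and Ddit3 lower. Outside the deeper set Ddit3 was at -0.46 ± 0.55. For N1het stenosis XCT790 they were 2.10 ± 0.48 for Gcat, 1.19 ± 0.67 for Psph, 1.06 ± 0.84 for Mthfd2, 0.09 ± 0.32 for Atf4 and -0.89 ± 0.48 for Ddit3. Again Gcat lay higher and Ddit3 lower without overlap, and nothing is read from the shares of 5.24% and 1.64% of all genes.

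**Figure D3:**
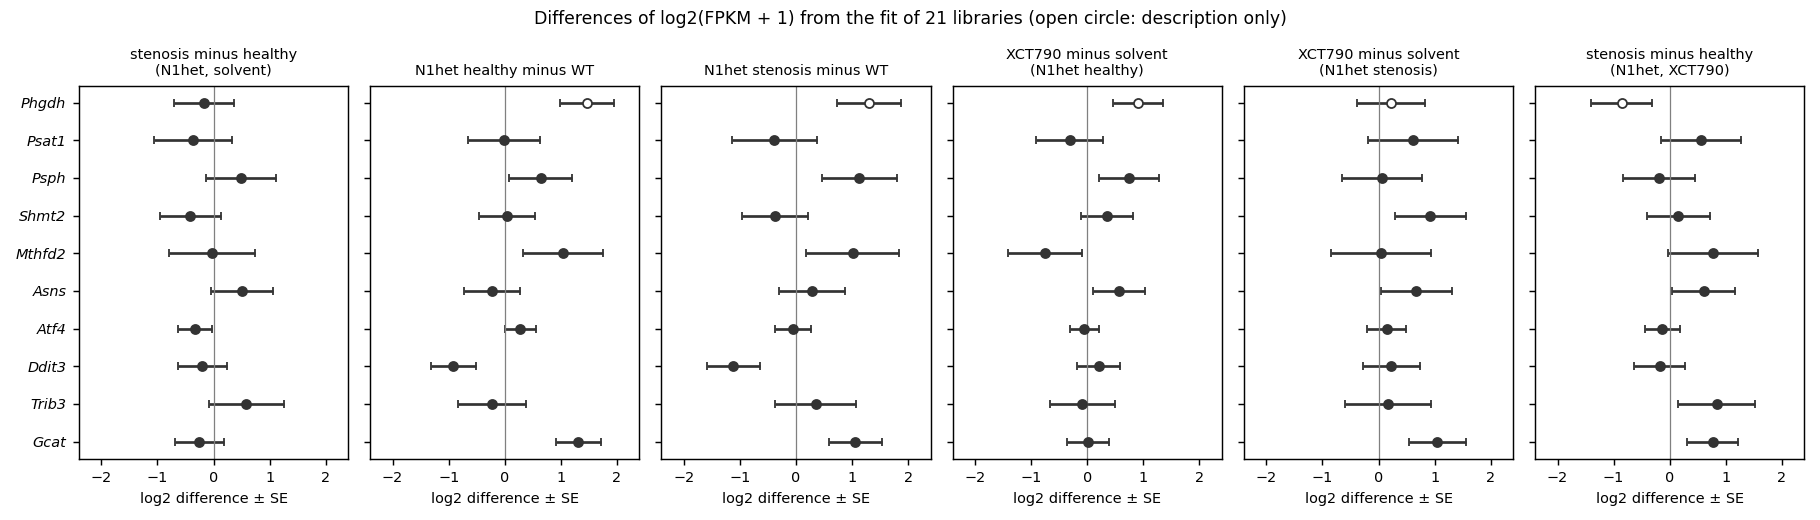
Difference of log2(FPKM + 1) for each gene (points) with its SE (bars) in 6 comparisons of the fit over 21 libraries, open circles marking Phgdh where it has no test. Gcat lies at 1.31 and 1.06, Ddit3 at -0.92 and -1.12 and Atf4 at 0.27 and -0.05 against WT. In stenosis minus healthy with solvent Atf4 lies at -0.33.

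Within groups, the SD on the log2(FPKM + 1) scale was 1.19 for Mthfd2, 1.08 for Psat1, 0.99 for Trib3, 0.93 for Psph and 0.84 for Shmt2. It was 0.75 for Asns, 0.74 for Phgdh, 0.66 for Ddit3, 0.51 for Gcat and 0.44 for Atf4, beside a median of 0.67 over all genes tested. Phgdh, Psat1, Psph, Shmt2 and Mthfd2, like Asns and Trib3, thus varied more between libraries of a group than the median gene. Gcat, Atf4 and, narrowly, Ddit3 varied less. Genes were not matched by level for this.

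Because WT and N1het libraries form separate clusters in Gcat, relations between members were computed over the 17 N1het libraries. Of 45 pairs, 24 had a positive Pearson r, with a median of 0.02, and none had an adjusted p under 0.05 by Pearson or Spearman permutation test. The strongest was negative, Psat1 with Atf4, at r = -0.68 (permutation p = 0.0029, adjusted p = 0.132) and rho = -0.47 (adjusted p = 0.733). Leaving out the 2 libraries most distant from the Psat1 median gave -0.54, and the value was -0.66 over the 12 libraries outside the deeper set and -0.77 for deviations from the group means. Psat1 and Mthfd2 had the highest value, r = 0.61 (adjusted p = 0.195) and rho = 0.59 (permutation p = 0.015, adjusted p = 0.628), or r = 0.39 with the 2 most distant libraries left out. Phgdh and Psat1, consecutive steps of 1 pathway, had r = -0.53 (adjusted p = 0.334) and rho = -0.54 (adjusted p = 0.628). The 5 deep N1het libraries are too few for a value of their own.

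**Figure D4:**
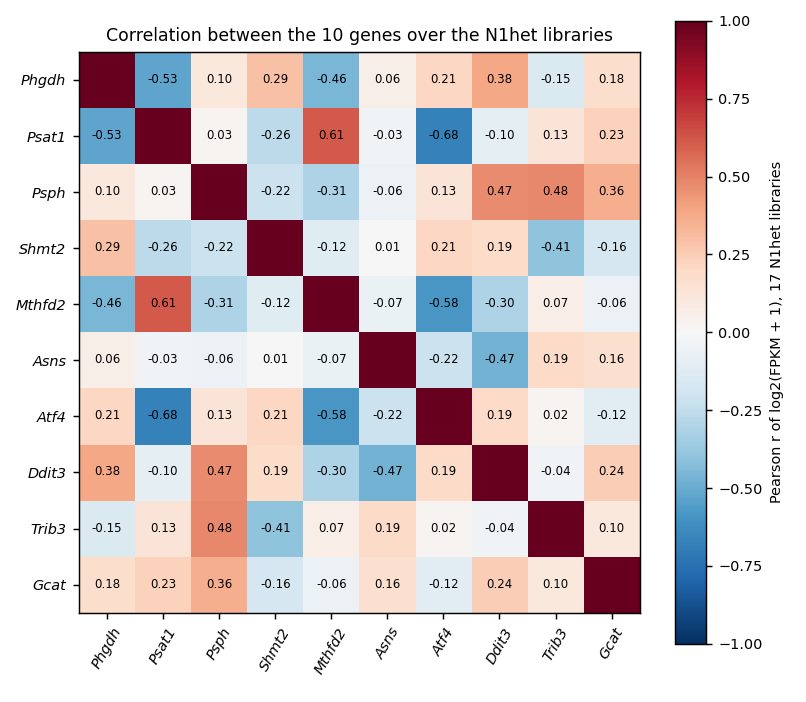
Pearson r of log2(FPKM + 1) for each pair of genes over the 17 N1het libraries, red for positive and blue for negative values. Values run from -0.68 for Psat1 with Atf4 to 0.61 for Psat1 with Mthfd2, and 24 of 45 are above 0.

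Among 9656 genes with a mean of at least 5 FPKM, those closest to Phgdh over all 21 libraries were Smg5 (r = 0.79), Mcoln1 (0.77), Nkiras2 (0.76), Dscr3 (0.75) and Tuba1a (0.75). Those closest to Asns were Hcst (0.80), Pggt1b (0.77) and Sf3a3 (0.71). Members with a lower mean were not among the genes searched. These values describe the libraries, whose genotype and depth the points share.

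The wider pathways gave no call in any comparison, where at most 0.0334% of all genes tested were called, so nothing is read from that absence. Of the other serine, glycine and one-carbon genes, 19 of 24 could be tested, and in N1het stenosis against N1het healthy 7 were higher and 12 lower (median -0.13). Mtr, methionine synthase, was at 0.67 ± 0.36 and Slc1a4, a serine carrier, at -0.67 ± 0.43 (limma adjusted p = 0.601 and 0.678). With XCT790 in healthy valves 11 of the 19 were higher (median 0.09). There Gldc, of the glycine cleavage system, was at 1.16 ± 0.53 and its partner Amt at -1.03 ± 0.68 (both adjusted p = 1).

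Of other ATF4 targets, 24 of 26 were tested. In stenosis against healthy 12 were higher and 12 lower (median 0.11), with the C/EBP factors Cebpb at 1.16 ± 0.47 and Cebpg at 0.80 ± 0.30 (limma adjusted p = 0.422 and 0.36), and Pck2, mitochondrial phosphoenolpyruvate carboxykinase, at -0.81 ± 0.45 (adjusted p = 0.615). With XCT790 in healthy valves 16 of the 24 were higher (median 0.19), Stc2 at 0.90 ± 0.55 and Atf3 at 0.65 ± 0.42. In N1het healthy against WT 13 were higher and 11 lower (median 0.22).

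Aminoacyl-tRNA synthetases, also induced by ATF4, were tested for 18 of 18, with 11 higher in stenosis (median 0.12) and Nars at 0.84 ± 0.26 (limma adjusted p = 0.266). The eIF2 alpha kinases and translation control genes had 6 of 9 higher (median 0.27) and the mitochondrial chaperones and proteases 7 of 9 (median 0.50), with Hspe1 at 0.86 ± 0.43 (adjusted p = 0.539). Of the ER chaperone and unfolded protein genes 9 of 16 were higher (median 0.10), while Xbp1, the factor spliced by the ER sensor IRE1, was at -0.91 ± 0.28 and its target Dnajb9 at -0.80 ± 0.38 (adjusted p = 0.266 and 0.515). Cell cycle genes, whose cells draw on one-carbon units, had 21 of 24 higher in stenosis (median 0.74), led by Tpx2 at 2.06 ± 0.47 (adjusted p = 0.13). The summed macrophage markers were also higher in N1het stenosis (4530 to 8301 FPKM) than in N1het healthy valves (1163 to 2801). Valve interstitial and fibroblast markers were lower there for 11 of 12 (median -0.53), and neutrophil markers higher for 3 of 3 tested (median 2.62). The part of these cell types in the differences above was not tested.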

How the data were processed

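RNA-seq was run on 21 aortic valve samples lysed directly for RNA, with the Qiagen RNeasy Micro and NuGEN Ovation RNA-Seq System V2 kits, per the labels' protocols. HISAT2, SAMtools, Picard, FastQC and build mm9 appear in the submitters' processing notes. No source used here names the counting program, its annotation or its strand setting. The authors deposited FPKM per gene and library, per the file headers, with their group means and 5 columns of other values that mark genes 0 or 1 by a test that no source used here names.

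Nonzero FPKM came out as whole reads within 0.01, from 8.42 to 27.3 M reads (megareads) per library, so a gene with a few reads is measured coarsely. Each ± value is an SD or SE from the spread between libraries. Amplified reads are not independent molecules, so read numbers alone do not give the counting error. The main test was limma 3.58.1 on log2(FPKM + 1) with 5 group means over all 21 libraries and 9 comparisons, trend and robust variance. Genes with a mean FPKM of at least 1 were tested (14966, with 5906 left out), and p-values were adjusted by Benjamini-Hochberg over all of them. The script was tested on simulated data with independent noise, in which only genes of higher mean level were changed. Recovery of low genes such as Gcat and Phgdh was thus not tested. The labels do not state that the samples of a group came from separate animals, so each p measures only the spread between these samples. Replicate numbers did not pair the samples.

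All 10 members are named, with, from each wider list, up to 3 genes of smallest p in N1het stenosis minus N1het healthy and in N1het healthy XCT790 minus N1het healthy, of which the text gives some. Members, lists and tests were chosen with earlier results of these data known. Alternatives were pseudocount, filters, scaling, limma voom on reads, the replicate block, the set of 6 deeper libraries, muscle markers, agent field groups, left-out libraries and the threshold. Sequences came from RefSeq (GRCm38.p6).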

Additional observations from a re-analysis of the deposited data

Results flagged for a closer look

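Dixon's ratio, the gap over the range, was computed on the log2(FPKM + 1) scale within groups of 4 or more libraries. In 3 of 30 combinations of member and group a library exceeded the 95% critical value. Chance alone flags about 1 in 20 groups. Levels below are in FPKM, while the ratios are on the log2(FPKM + 1) scale and need not hold in FPKM. Psat1 stood at 0.285 FPKM in WT 4, with the nearest WT library at 13.1 FPKM (gap over range 0.832, critical value 0.829). Psph stood at 11.5 FPKM in N1het healthy 5, with the nearest at 3.90 (0.65 against 0.625). Mthfd2 stood at 0.0325 FPKM in N1het healthy 3, with the nearest at 4.58 (0.644 against 0.625). WT 4 and N1het healthy 3 are among the 3 libraries that correlated least with the rest.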

How the results depend on the processing

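Of 2024 member differences recomputed over 35 settings, 156 changed sign, mostly values near 0, and 5 of those had exceeded their SE. Without the 3 farthest libraries, Psph turned to -0.77 in N1het healthy minus WT, -0.36 in N1het stenosis minus WT, -0.10 in N1het healthy XCT790 minus WT and -0.30 in N1het stenosis XCT790 minus WT. With groups from the agent field, Asns turned to -0.087 in N1het stenosis XCT790 minus N1het healthy XCT790. The causes were not tested beyond the libraries removed. The median over the members, Phgdh included, was 0.32 in N1het healthy XCT790 minus WT and 0.60 outside the set of 6 deeper libraries. In N1het stenosis XCT790 minus WT it was 0.75, and became 1.03 with a pseudocount of 0.1 and 0.39 with a mean FPKM of at least 5. The count of members called was 0 in every setting, and the lowest adjusted p of a tested member was 0.229 (Gcat, N1het stenosis minus WT, pseudocount 0.1).

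Counts over all genes ran from 0 to 35 in N1het stenosis minus N1het healthy (5 in the limma result reported) and from 0 to 11 in N1het stenosis minus WT (5). Where the reported count was 0, the highest was 5 in N1het healthy minus WT (without WT 3), 5 in N1het stenosis XCT790 minus N1het healthy XCT790 (without N1het stenosis XCT790 1), 18 in N1het stenosis XCT790 minus WT (agent field groups), 3 in N1het healthy XCT790 minus WT, 2 in N1het stenosis XCT790 minus N1het stenosis and in the interaction, and 1 in N1het healthy XCT790 minus N1het healthy. Same-numbered libraries correlated at 0.01 on average in their deviations (34 pairs), so the number pairs no samples. With the replicate block, members called stayed at 0, and the medians for the 2 treated groups minus WT were 0.39 and 0.79. Median-of-ratios scaling moved the median of all genes from 0.12 to 0.02 in N1het healthy XCT790 minus WT and from 0.17 to 0.05 in N1het stenosis XCT790 minus WT. The agent field leaves no solvent stenosis group, so comparisons with it have no such value. Few reads limit the WT levels of Gcat (0 to 5 reads a library) and of Phgdh (2 to 30). For Psph they do so in WT 1 and WT 4 (0 and 2 reads) but not in WT 2 and WT 3 (136 and 89), and WT 1 is among the deepest libraries (21.5 M reads).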
